A study of Mus musculus with 2 samples.

Results

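The genes described here encode the fractalkine receptor Cx3cr1 and the chemokine receptors Ccr1, Ccr2, Ccr3, Ccr7, Ccrl2 and Cxcr4, 7 of the 21883 protein-coding genes of the RefSeq table. The regions taken were the peaks of accessible chromatin that overlap an annotated gene or the 10 kb on either side of it, which came to 52 of 128129 Tle4cKO peaks and 56 of 128737 WT peaks. The regions were mapped by ATAC-seq, in which a transposase inserts sequencing adapters into open chromatin. The cells were colonic macrophages of male C57BL/6 mice, 18.9 weeks old, gated as CD64-positive, Ly6C-low and Siglec-F-negative. One group, Tle4cKO, carried floxed Tle4 alleles and Lyz2-Cre (Tle4f/f Lyz2-Cre), so that the corepressor gene Tle4 is deleted in cells of the myeloid lineage. The other, WT, carried Lyz2-Cre, which both groups share. Cells of 2 mice per genotype were pooled into 1 library. There is therefore no replicate, SD or test behind any value, and every difference describes these libraries. Within 10 kb of Tle4 itself lay 14 Tle4cKO and 22 WT peaks, of which 3 were Tle4cKO-only and 12 WT-only (overlapping no peak of the other list). Over all peaks 23.5% were Tle4cKO-only and 27.1% WT-only. Peaks do not show whether the floxed part was deleted. In a pooled library, fewer cells with an open region and less opening per cell cannot be told apart.

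Chemokine receptors are receptors with several membrane-spanning helices that couple to G proteins and steer leukocytes along gradients of small secreted ligands. In the gut, Cx3cr1 is a hallmark of resident macrophages, whereas Ccr2 is needed for blood monocytes to leave the bone marrow and is lost as they mature in the tissue. Tle4 belongs to the Groucho family of corepressors, which bind no DNA themselves and are brought to it by factors such as RUNX and TCF/LEF proteins.

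Each peak list gives a start, an end, a summit and the pileup. The pileup is the signal at the summit, in whole numbers with no recorded scaling between libraries. The unit it counts is not stated in the sources used. The median pileup was 20 in Tle4cKO and 28 in WT. Peaks were paired when each was the highest peak overlapping the other, which gave 92335 pairs with a median Tle4cKO to WT pileup ratio of 0.741. Because this ratio changes with peak height, each pair's log2 ratio is also given relative to the median of pairs of like pileup, among 50 bins of summed pileup. A pair counts as lower or higher when it lies at least 1.5-fold from that median. The defining genes of macrophages were open in both libraries: 10 of 10 marker genes, among them Adgre1, Mertk and Cd68, had a peak within 1000 bp of a gene end (a gene-end peak). At Cd68 the highest such pileup was 166 in Tle4cKO and 202 in WT, and at Lyz2, the gene whose promoter drives Cre, it was 33 in Tle4cKO and 55 in WT. Such peaks were also present at genes of cells outside the gate, with 4 genes taken per cell type. In Tle4cKO they stood at 3 neutrophil, 2 T cell, 4 B cell and 3 epithelial genes, and in WT at 4, 3, 4 and 3. The share of all genes with a gene-end peak was not taken, so these counts have no level to be read against. Of the 32851 RefSeq promoter windows described below, 46.1% were overlapped by a Tle4cKO peak and 47.1% by a WT peak. A gene-end peak by itself does not separate the macrophage genes from the B cell genes, where 4 of 4 had it in both libraries.

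The promoter sequences of 5 receptor genes are shown because the peaks at these starts contrast: kept at Cx3cr1 and Ccr1, lowest in relative height at Ccr3, of different reach at Ccr2 and widest at Cxcr4. Each is the 250 bases before the RefSeq start (GRCm38.p6, the assembly behind mm10), written from 5′ to 3′ on the gene's own strand. Capitals mark matches, on either strand, to 8 motifs: PU.1 GAGGAAG, RUNX TGTGGT, AP-1 TGANTCA, C/EBP TTGCNNAA, TCF/LEF CTTTGAA, KLF/SP GGGCGG and the motifs of IRF and NF-kappaB. No 2 of the matches shown overlap.
Cx3cr1: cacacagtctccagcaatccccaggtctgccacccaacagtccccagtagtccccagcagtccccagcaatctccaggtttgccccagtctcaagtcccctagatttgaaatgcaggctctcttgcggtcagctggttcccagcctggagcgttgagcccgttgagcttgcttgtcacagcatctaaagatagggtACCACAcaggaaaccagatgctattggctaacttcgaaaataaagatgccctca
Ccr1: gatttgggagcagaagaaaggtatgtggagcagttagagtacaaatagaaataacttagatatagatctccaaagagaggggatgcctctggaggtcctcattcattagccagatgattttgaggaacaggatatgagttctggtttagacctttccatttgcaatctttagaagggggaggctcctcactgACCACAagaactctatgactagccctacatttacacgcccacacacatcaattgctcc
Ccr2: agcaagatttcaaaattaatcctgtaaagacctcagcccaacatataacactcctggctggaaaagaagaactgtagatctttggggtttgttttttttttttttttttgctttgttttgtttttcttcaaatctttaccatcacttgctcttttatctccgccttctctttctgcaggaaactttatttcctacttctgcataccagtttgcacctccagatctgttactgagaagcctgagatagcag
Ccr3: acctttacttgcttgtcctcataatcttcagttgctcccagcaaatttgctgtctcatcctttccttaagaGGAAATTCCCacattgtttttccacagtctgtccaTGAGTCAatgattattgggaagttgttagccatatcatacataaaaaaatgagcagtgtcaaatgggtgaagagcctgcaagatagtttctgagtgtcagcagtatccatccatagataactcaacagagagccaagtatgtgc
Cxcr4: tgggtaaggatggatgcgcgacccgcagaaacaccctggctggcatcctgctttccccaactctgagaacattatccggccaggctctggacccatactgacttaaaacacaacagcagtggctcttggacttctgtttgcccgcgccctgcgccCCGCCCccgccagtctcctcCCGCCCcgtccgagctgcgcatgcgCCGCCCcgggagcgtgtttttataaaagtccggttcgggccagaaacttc
The Cx3cr1 window (chr9:120068297-120068546, minus strand) and the Ccr1 window (chr9:123968693-123968942, minus strand) each held 1 RUNX match, 54 and 58 bases before the start, counted from the first base of the match. RUNX letters were present in 14.05% of 32851 RefSeq windows of this length. The Ccr3 window (chr9:124021721-124021970, plus strand) held 1 NF-kappaB match, letters found in 0.356% of windows, and 1 AP-1 match, found in 6.75%. The Cxcr4 window (chr1:128592300-128592549, minus strand) held 3 KLF/SP matches, letters found in 32.7% of windows, and was the richest in G and C, at 61.2% with 19 CpG. The Ccr2 window (chr9:124101933-124102182, plus strand) held none of the 8 motifs and was the poorest, with 37.2% G and C and 1 CpG. Over all windows the median was 52.4% G and C and 6 CpG. A match is a description of the letters and not of a bound factor.

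At Cx3cr1, all regions found in Tle4cKO were also found in WT, and 2 WT regions had no counterpart in Tle4cKO. Cx3cr1 encodes the receptor for fractalkine, the membrane-bound chemokine Cx3cl1. The gene spans chromosome 9, 120048683 to 120068296, on the minus strand. Its window held 9 Tle4cKO peaks, 0 of them Tle4cKO-only, and 11 WT peaks, 2 of them WT-only. Over all peaks, 23.5% of Tle4cKO peaks and 27.1% of WT peaks were list-only, so a WT-only share of 2 in 11 was not above the whole list. Stronger peaks are less often list-only, however, and read against WT peaks of like pileup the 11 peaks would hold 0.448 WT-only peaks.

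**Figure D1:**
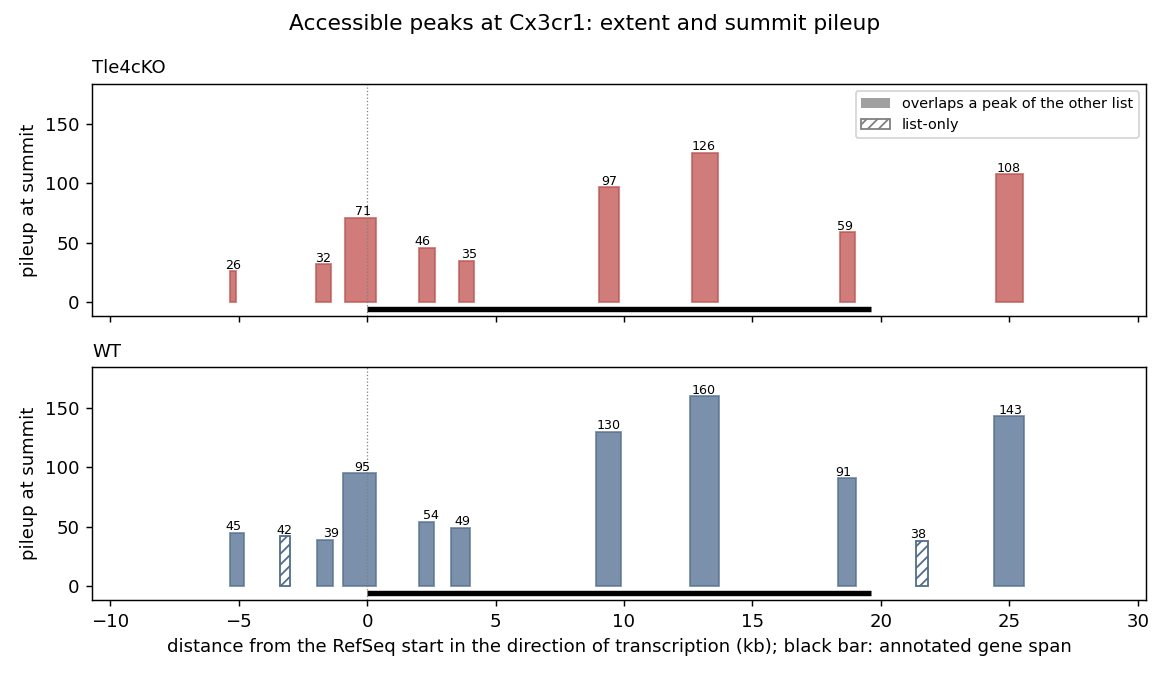
Peaks at Cx3cr1 in Tle4cKO (upper panel) and WT (lower panel). Each box spans a peak along the gene, in kb from the RefSeq start, and its height and number give the summit pileup; hatched boxes overlap no peak of the other list. The same 9 regions stand in both panels, and the WT-only peaks of pileup 42 and 38 lie outside the gene on either side of it.

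The stronger WT-only peak lay upstream of the Cx3cr1 start, at 120071292 to 120071667, 2996 bp outside the gene, with a width of 376 bp and a pileup of 42. The nearest Tle4cKO peak was 1003 bp away. Of the 8120 WT peaks with a pileup within 10% of this one, 8.12% were WT-only. The other lay beyond the 3′ end of the gene, at 120046482 to 120046944, 1739 bp outside it, with a width of 463 bp, a pileup of 38 and 2371 bp to the nearest Tle4cKO peak. Of 7142 WT peaks of like pileup, 8.72% were WT-only. Both stand in the upper tail of WT-only peaks, 97.0% and 96.0% of which had a lower pileup, but neither reached the upper quartile of all WT peaks, 67.

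The 9 paired regions of Cx3cr1 are given along the direction of transcription, with summits as distances from the RefSeq start (minus is upstream). The first had a pileup of 26 in Tle4cKO (120073384 to 120073620) and 45 in WT (120073092 to 120073632), with summits at -5226 and -5218 bp. Its ratio of 0.578 (95% interval 0.342 to 0.957) was the lowest of the gene, and its width the most different, 237 bp in Tle4cKO and 541 bp in WT. The next, at -1701 bp in Tle4cKO and -1413 bp in WT, had pileups of 32 and 39 and a ratio of 0.821 (0.498 to 1.34). These upstream regions thus lay on either side of pairs of like pileup, at -0.26 and 0.25 in relative log2 ratio.

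The peak across the Cx3cr1 start, which holds the promoter sequence above, was kept. It ran from 120067943 to 120069151 in Tle4cKO, with a pileup of 71, and from 120067951 to 120069216 in WT, with a pileup of 95. Its ratio was 0.747 (0.542 to 1.03) and its relative log2 ratio 0.05. The 120063262 to 120071051 span of the predicted long noncoding gene Gm33858 covers this start as well, so the peak is not assigned to 1 gene. The same holds for the upstream pair of pileup 32 in Tle4cKO and 39 in WT, which lies within that span. Within it also lie the pairs of pileup 46 and 54 and of 35 and 49 given next.

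Inside Cx3cr1, 5 pairs followed. The first, with summits 2140 bp from the start in Tle4cKO and 2488 bp in WT, had pileups of 46 and 54. Its ratio of 0.852 (0.562 to 1.29) was the highest of the gene. The second, at 3989 and 3697 bp, had pileups of 35 and 49. These weaker intragenic peaks had summits 348 and 292 bp apart, against a median of 44 bp over all pairs.

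The strongest regions of Cx3cr1 lay further into the gene. The peak with summits at 9417 bp in Tle4cKO and 9386 bp in WT had pileups of 97 and 130. The highest of the gene, at 13103 and 13081 bp (120054641 to 120055660 in Tle4cKO and 120054602 to 120055717 in WT), had pileups of 126 and 160. Its ratio was 0.788 (0.619 to 1.001) and its relative log2 ratio -0.02, so the region that dominates the gene differed from pairs of like pileup by less than its counting interval. A peak at 18585 and 18527 bp had pileups of 59 and 91, with a relative log2 ratio of -0.15. Beyond the gene, the peak at 24984 and 25031 bp had pileups of 108 and 143.

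Over the 9 Cx3cr1 pairs the pileup was lower in Tle4cKO in 9 of 9, as in 90.8% of all pairs. The median ratio was 0.747 and the median relative log2 ratio -0.02, with a range of -0.26 to 0.29. None of the 9 was lower or higher by 1.5-fold, against 3.32% and 3.88% of all pairs. Peaks were narrower in Tle4cKO in 8 of 9 pairs, against 69.5% of all pairs, with a median width difference of -99 bp (Tle4cKO minus WT) beside -61 bp over all pairs. With the WT-only peaks included, peaks covered 6683 bp of the window in Tle4cKO and 8547 bp in WT, a ratio of 0.782, beside 0.881 for the whole lists.

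By number of peaks alone, a window with WT-only peaks and no Tle4cKO-only peak was not rare. Of 1233 protein-coding genes with a total number of peaks within 2 of that of Cx3cr1, 170 (13.8%) held at least 2 WT-only and 0 Tle4cKO-only peaks. This count takes WT-only peaks of any pileup. The median pileup of all WT-only peaks was 12, beside 42 and 38 at Cx3cr1. The genes most like Cx3cr1, with exactly 2 and 0, 18 to 22 peaks in all and the nearest highest list-only pileup, were Fcgrt (41), Kcnip3 (41), Ptcd2 (41), Haao (44) and Myl12b (45), out of 81 candidates. They lie on chromosomes 7, 2, 13 and 17, and the likeness rests on 2 libraries.

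**Figure D2:**
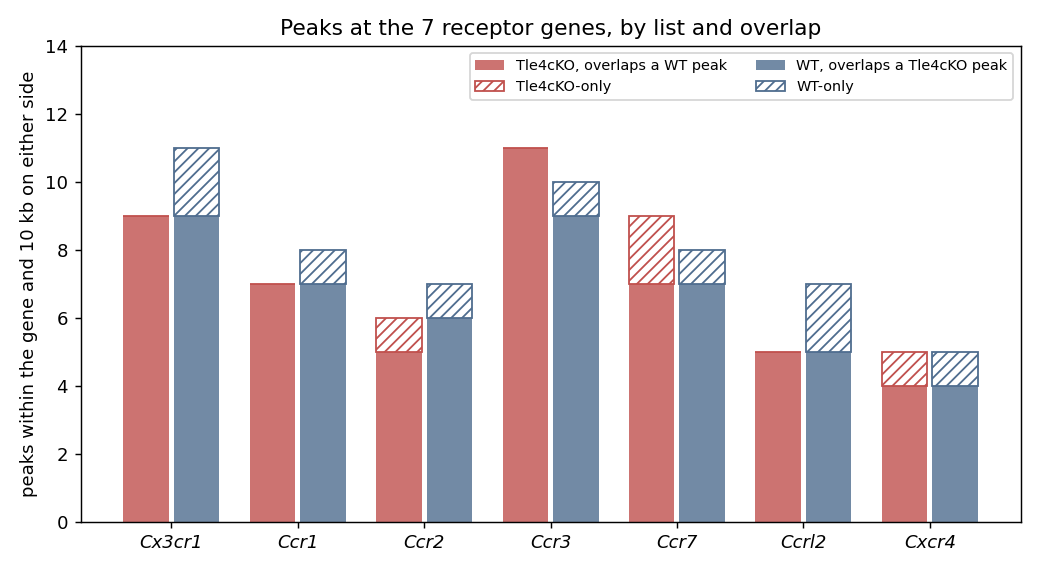
Number of peaks within each gene and 10 kb on either side, Tle4cKO left and WT right of each pair of bars; hatched parts overlap no peak of the other list. Tle4cKO-only peaks stood at Ccr2, Ccr7 and Cxcr4, and WT-only peaks at all 7 genes.

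Ccr1, Ccr3 and Ccr2 lie within a receptor gene cluster on chromosome 9, and their windows do not overlap each other. Ccr1 encodes a receptor for Ccl3 and Ccl5 and spans 123962126 to 123968692. Its window held 7 Tle4cKO peaks, 0 Tle4cKO-only, and 8 WT peaks, 1 WT-only. The WT-only peak, at 123967268 to 123967467, was 200 bp wide with a pileup of 49, the highest among the 9 WT-only peaks of all 7 genes. It lay inside the gene, 455 bp from the Tle4cKO peak across the start.

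That peak across the Ccr1 start was the strongest of the gene, with a pileup of 132 in Tle4cKO (123967922 to 123969151) and 178 in WT (123967976 to 123969148). Its ratio was 0.742 (0.588 to 0.934) and its relative log2 ratio -0.12. Beyond the 3′ end and inside the gene, 4 pairs lay between -0.07 and 0.19. Upstream, a weak pair with pileups of 8 in Tle4cKO and 15 in WT was lower by 1.5-fold, at a relative log2 ratio of -0.67, and its neighbour, with pileups of 18 and 35, stood at -0.40. The interval of the weak pair's ratio, 0.196 to 1.34, runs from far below the ratio of like pairs, 0.846, to above 1. Both upstream pairs lie between Ccr1 and the receptor-like gene Ccr1l1 (123976430 to 123986715), within 10 kb of each, and are not assigned to 1 of them.

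Ccr3 held the lowest Tle4cKO to WT pileup ratios among the pairs of the 7 genes. Ccr3 is the receptor for the eotaxin Ccl11 and is known from eosinophils, which the Siglec-F gate removes. The gene spans 124017825 to 124031692 on the plus strand. The RefSeq start used here for the promoter and the distances, 124021971, lies inside this span and not at its 5′ end. The window of the gene held 11 Tle4cKO peaks and 10 WT peaks. Of these, 0 were Tle4cKO-only and 1, of pileup 14, was WT-only. The higher number in Tle4cKO came from WT peaks that appeared as a pair of peaks there: the WT peak at 124012390 to 124013771 overlapped Tle4cKO peaks of pileup 18 and 19, and the one at 124031122 to 124031624 overlapped Tle4cKO peaks of pileup 11 and 14.

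**Figure D3:**
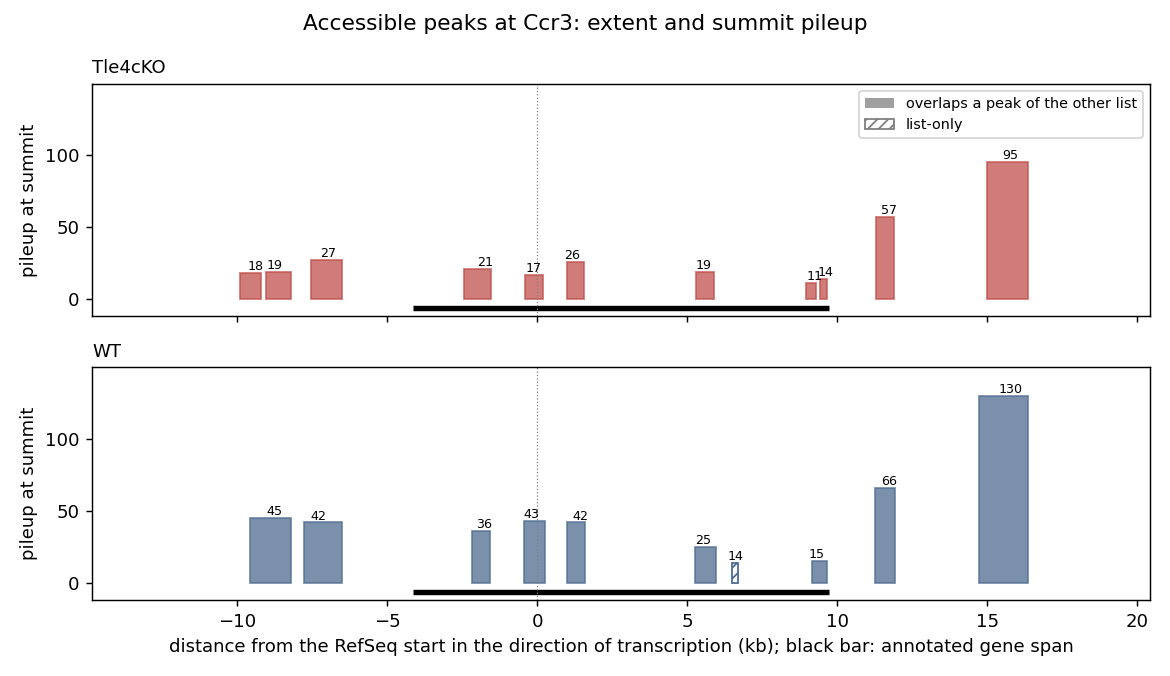
Peaks at Ccr3 in Tle4cKO (upper panel) and WT (lower panel), drawn by distance in kb from the RefSeq start; box heights and numbers are summit pileups and hatched boxes are list-only. The peak at the RefSeq start used, which lies inside the annotated span, had a pileup of 17 in Tle4cKO and 43 in WT. The 2 strongest peaks, beyond the gene, had 57 and 95 in Tle4cKO and 66 and 130 in WT.

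The peak over the RefSeq start used for Ccr3, inside the annotated span, holds the printed promoter. It had a pileup of 17 in Tle4cKO (124021560 to 124022163) and 43 in WT (124021524 to 124022221). Its ratio of 0.395 (0.211 to 0.708) was the lowest of the 45 pairs at the 7 genes, at a relative log2 ratio of -0.77. An upstream pair, with summits at -8770 bp in Tle4cKO and -8764 bp in WT, had pileups of 19 and 45 and a relative log2 ratio of -0.70. Both counted as lower, 2 of 9 pairs, where 3.32% of all pairs did, and 5.31% of the 8628 pairs with a WT pileup of 36 to 45, a range chosen after the values were seen. The ratios of pairs of like pileup, 0.676 and 0.684, still lay within both counting intervals.

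The rest of the Ccr3 window did not share this size of difference. Pileups were 27 in Tle4cKO and 42 in WT at -6980 and -7291 bp, 21 and 36 at -1733 and -1777 bp, and 26 and 42 at 1158 and 1452 bp, with relative log2 ratios of -0.09, -0.23 and -0.14. Further on, the gene's weak peaks stood at 0.13 and 0.29. The strong peaks beyond the gene, with pileups of 57 and 66 and of 95 and 130, stood at 0.30 and -0.06. The median relative log2 ratio over the 9 pairs was -0.09, and 81.7% of the 469 genes with 9 pairs had a higher median.

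Markers of eosinophils are given beside Ccr3. In each library 2 of the 4 marker genes had such a peak, Siglecf and Il5ra, and at Epx and Prg2, which encode granule proteins, there was none. Siglecf held pairs above the upper quartile of both lists, with pileups of 75, 63 and 73 in Tle4cKO and 99, 101 and 85 in WT, while the pairs of Epx and Prg2 were weak. The 10 pairs of the 4 genes had a summed pileup of 342 in Tle4cKO and 481 in WT, a ratio of 0.711, and a median relative log2 ratio of -0.13. At Siglecf, the gene of the marker used for the gate, 5 pairs had relative log2 ratios of -0.34 to 0.26, and at Epx 1 pair of pileup 11 and 23 stood at -0.55. At Il5ra a pair of pileup 16 and 12 was higher by 1.5-fold, at 0.83. Their part in the values at Ccr3 was not tested.

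Ccr2, the receptor for the monocyte chemoattractant Ccl2, had a median relative log2 ratio of 0.20, the highest of the 7 genes with 10 kb on either side. The gene spans 124101918 to 124109140 on the plus strand. Its window held 6 Tle4cKO peaks, 1 Tle4cKO-only, and 7 WT peaks, 1 WT-only. Pileups were 38 in Tle4cKO and 42 in WT upstream of the gene, and 65 and 79 at the main peak inside it. They were 30 and 40 at the next peak, 71 and 100 at the strongest, beyond the gene, and 39 and 49 at the last. Relative log2 ratios were 0.41, 0.21, 0.12, -0.04 and 0.20, so that 4 of 5 were above 0 and none reached 1.5-fold. Of 1745 genes with 5 pairs, 6.07% had a higher median. The rank was lost with other windows: with 50 kb on either side the median of Ccr2 over 21 pairs was 0.01, against 0.06 at Cxcr4 and 0.03 at Ccrl2, and without a flank it was 0.17, against 0.18 at Ccr7.

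The regions at the RefSeq start used for Ccr2 reached differently far in the libraries. This start, 124102183, lies inside the annotated span and not at its 5′ end. The whole promoter window shown above therefore also lies inside the annotated gene. The WT peak ran from 124101995 to 124103923, with its summit 1372 bp after the RefSeq start, and covered 188 of the 250 promoter bases shown above. The Tle4cKO peak ran from 124102935 to 124104271, with its summit 1451 bp after the start, and began 753 bp after the promoter window. Of 32851 RefSeq promoter windows, 757 (2.3%) were likewise overlapped by a WT peak and by no Tle4cKO peak, and 1.35% showed the opposite. Only the 15464 windows overlapped by a WT peak could show the pattern of Ccr2. The same Tle4cKO peak also overlapped a second, narrow WT peak of pileup 40 at 124104073 to 124104313. The summits of the paired peaks lay 79 bp apart.

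The list-only peaks at Ccr2 had the same raw pileup, which ranks higher in the Tle4cKO list than in the WT list. The Tle4cKO-only peak, inside the gene at 124106497 to 124106696, had a pileup of 23, above 54.3% of its list, and lay 341 bp from a WT peak. Of Tle4cKO peaks of like pileup, 4.51% were Tle4cKO-only. The WT-only peak, 1471 bp outside the gene at 124110611 to 124110899, had a pileup of 23, above 42.6% of its list, and lay 1042 bp from a Tle4cKO peak. Of WT peaks of like pileup, 17.2% were WT-only. Monocyte markers are given beside them, since Ccr2 is a monocyte gene: Chil3 had no gene-end peak in either library, and the other 5 of 6 markers had one in both. Of their 37 pairs, 0 were lower by 1.5-fold and 3 higher, against 3.32% and 3.88% of all pairs. The 37 pairs had a summed pileup of 1166 in Tle4cKO and 1557 in WT and a median relative log2 ratio of 0.03. Their part in the values at Ccr2 was not tested.

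Ccrl2, an atypical receptor that binds chemerin without signalling through G proteins, held the strongest region of the 7 genes. It spans 111054834 to 111057518 on chromosome 9, minus strand, apart from the cluster. The strongest region lay upstream, with summits at -1876 bp in Tle4cKO and -1882 bp in WT and pileups of 151 and 188. The peak across the start had pileups of 123 and 149 and the same summit in both libraries, 164 bp after the first listed RefSeq start, from which these distances count. The same summit lay 84 and 110 bp before the other listed starts, 111057270 and 111057244. Ratios were 0.803 (0.644 to 1.0004) and 0.826 (0.645 to 1.06), and all 5 pairs of the gene lay within -0.09 to 0.08 in relative log2 ratio. The window held 5 Tle4cKO peaks, 0 Tle4cKO-only, and 7 WT peaks, 2 WT-only. These WT-only peaks had pileups of 27 (111048982 to 111049530) and 44 (111062795 to 111063303), with the nearest Tle4cKO peak 1264 and 2945 bp away.

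Ccr7, the receptor through which Ccl19 and Ccl21 guide dendritic cells and lymphocytes to lymph nodes, held the strongest Tle4cKO-only peak of the 7 genes. The gene spans chromosome 11, 99144199 to 99155077, and its window held 9 Tle4cKO peaks, 2 Tle4cKO-only, and 8 WT peaks, 1 WT-only. The Tle4cKO-only peak at 99162865 to 99163450, 7788 bp outside the gene, had a pileup of 36 and a width of 586 bp and lay 1246 bp from a WT peak. Of 6570 Tle4cKO peaks of like pileup, 2.02% were Tle4cKO-only, and 99.1% of all Tle4cKO-only peaks had a lower pileup. It lay below the upper quartile of the list, 47. The other list-only peaks of Ccr7 faced each other: a Tle4cKO-only peak of pileup 16 (99136678 to 99136934) and a WT-only peak of pileup 25 (99137321 to 99137866) were 387 bp apart.

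The shared regions of Ccr7 differed more in summit position than in relative height: summits lay a median of 198 bp apart, beside 44 bp and an upper quartile of 193 bp over all pairs. Widths differed by a median of -86.5 bp (Tle4cKO minus WT), beside -61 bp. The peak across the gene end at 99155077 had pileups of 54 in Tle4cKO and 65 in WT, and the broad one inside the gene had 52 and 66, with summits 534 bp apart within peaks of 1447 and 1443 bp. The strongest, outside the gene, had 82 and 115. Its neighbour at 99160796 to 99161348 in Tle4cKO and 99160683 to 99161339 in WT had pileups of 28 and 51 and the lowest relative log2 ratio of the gene, -0.31. The median over 6 pairs was 0.09, but -0.05 over 21 pairs with 50 kb on either side. Of 4 dendritic cell marker genes, given because Ccr7 marks migrating dendritic cells, 3 were open at a gene end in both libraries. Their 50 pairs had a summed pileup of 2227 in Tle4cKO and 3055 in WT and a median relative log2 ratio of -0.01, and their part in the values at Ccr7 was not tested.

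Cxcr4, the receptor for Cxcl12, had the narrowest spread of relative ratios, over the fewest pairs of the 7 genes, 4. It also had the covered length nearest to equal, 4285 bp in Tle4cKO and 4379 bp in WT. The gene spans chromosome 1, 128588199 to 128592299, on the minus strand, and its window held 5 peaks in each list, 1 of them list-only in each. A single broad peak covered the start and the adjoining part of the gene: it was 2845 bp wide with a pileup of 136 in Tle4cKO, and 2877 bp wide with a pileup of 167 in WT. It was the widest peak of the 7 genes in both lists, and it holds the G- and C-rich promoter with 3 KLF/SP matches. Its ratio was 0.814 (0.645 to 1.03). The other pairs were weak, at 34 and 48, 15 and 21, and 13 and 17, and all 4 relative log2 ratios lay between 0 and 0.06. The pairs of 15 and 21 and of 13 and 17 stood at 0, but their ratio intervals were wide, 0.343 to 1.45 and 0.342 to 1.67. The Tle4cKO-only peak had a pileup of 10 and the WT-only peak one of 13, heights at which 65.2% of Tle4cKO and 58.5% of WT peaks were list-only.

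**Figure D4:**
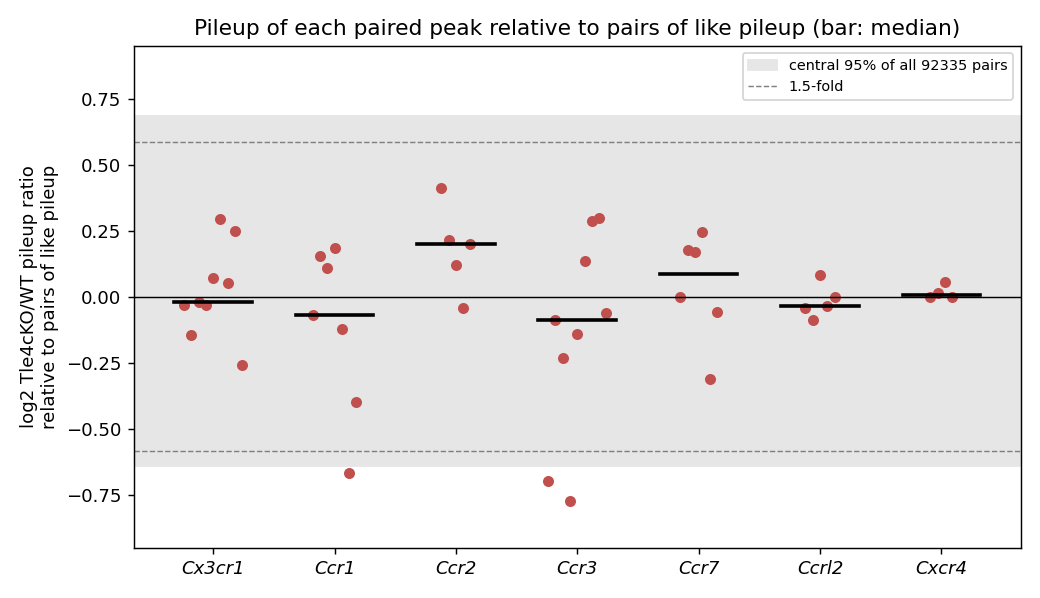
Log2 Tle4cKO to WT pileup ratio of each of the 45 paired peaks relative to the median of pairs of like pileup, by gene, in genome order within a gene; bars are medians, dashed lines mark 1.5-fold, and the grey band holds the central 95% of all 92335 pairs. Only 1 Ccr1 pair and 2 Ccr3 pairs lie past a dashed line, all on the lower side, and 4 of 5 Ccr2 pairs lie above 0.

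Across the 7 genes, 45 pairs had a median pileup ratio of 0.746, with a range of 0.395 to 0.933, beside 0.741 over all pairs. The median relative log2 ratio was 0 (95% interval of the median -0.04 to 0.08), with 21 pairs below 0 and 20 above. Of the 45, 3 were lower by 1.5-fold and 0 were higher, against 3.32% and 3.88% of all pairs, and the share of 3 in 45 rests on the 2 Ccr3 pairs and the weak Ccr1 pair. In 45 of 45 pairs the counting interval held the ratio of pairs of like pileup. Over all pairs, 0.632% had an interval below and 0.696% one above that ratio.

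**Figure D5:**
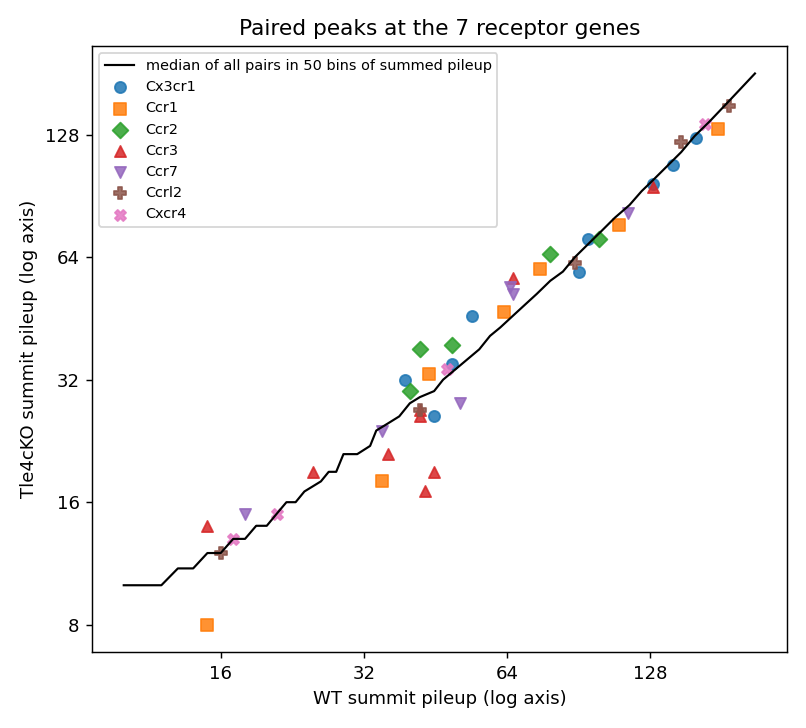
Summit pileup of the 45 paired peaks in Tle4cKO (vertical) and WT (horizontal), both on log axes, by gene; the line joins the medians of all pairs in 50 bins of summed pileup. Peaks with a WT pileup above 100 sit close to the line, and the 2 Ccr3 peaks of pileup 17 and 19 in Tle4cKO lie farthest below it among peaks of medium height.

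List-only peaks were fewer than in the whole lists. Of the members, 4 of 52 Tle4cKO peaks (7.69%) were Tle4cKO-only and 9 of 56 WT peaks (16.1%) WT-only, beside 23.5% and 27.1% over all peaks. Read against peaks of like pileup in the same list, the members would hold 4.58 Tle4cKO-only and 5.96 WT-only peaks, so the Tle4cKO count was near that level and the WT count above it. Summits of pairs lay a median of 47 bp apart, beside 44 bp over all pairs, and widths differed by a median of -43 bp beside -61 bp.

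The other chemokine receptor genes showed list-only peaks in both directions. Over 17 such genes, 10 of 83 Tle4cKO peaks were Tle4cKO-only and 10 of 80 WT peaks WT-only, a peak in windows that overlap being counted at each gene. Both shares lay below the 23.5% and 27.1% over all peaks, but no level for peaks of like pileup was taken for these genes. More Tle4cKO-only peaks were found at 3 genes, more WT-only at 3, and equal numbers at 11. Their 69 pairs had a median relative log2 ratio of 0.05, with 2 lower and 2 higher, against 3.32% and 3.88% of all pairs. These pairs are not separate from those of the members. The lower Ccr1 pair, with pileups of 8 in Tle4cKO and 15 in WT, is also counted among them. Ccr1l1, next to Ccr1, held 1 Tle4cKO-only and 1 WT-only peak and had a median of -0.12 over 8 pairs. Its window shares with that of Ccr1 the WT-only peak of pileup 49, the pair across the Ccr1 start and the upstream pairs.

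Of the other receptor genes with the most peaks, Ccr6, the receptor for Ccl20, held 2 Tle4cKO-only and 2 WT-only peaks. Cxcr5, the B cell follicle homing receptor, held 0 and 2, the higher with a pileup of 64. Cxcr6 held 1 and 0. Xcr1, a marker of cross-presenting dendritic cells, and the scavenging receptor Ackr2 held neither, with 7 pairs each and medians of 0.07 and -0.23.

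The ligand genes held a smaller share of list-only peaks than the whole lists, with pileup not taken into account. Over 12 genes, 0 of 46 Tle4cKO peaks were Tle4cKO-only and 5 of 50 WT peaks WT-only, both below the 23.5% and 27.1% over all peaks. These counts add up the windows of the genes, so a peak in windows that overlap was counted at each gene. No level for peaks of like pileup was taken for these genes, and stronger peaks are less often list-only. The ligand genes had 35 pairs, each counted once, at a median relative log2 ratio of -0.06. Of these, 1 was lower and 0 were higher, against 3.32% and 3.88% of all pairs. Cx3cl1, the ligand of Cx3cr1, held 7 Tle4cKO and 8 WT peaks, with 1 WT-only peak of pileup 20 and a median of -0.23 over 7 pairs. Ccl5, a ligand of Ccr1 and Ccr3, held 5 and 8 peaks, 3 of them WT-only. Ccl4 held 8 and 7, with none list-only.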

How the data were processed

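The libraries comprised 1 Tle4cKO and 1 WT library, each from 2 pooled mice. The authors deposited 1 peak list per library. In it, per the file headers, pileup is the signal at each summit; its values are whole numbers of at least 7 and no scaling is recorded. Width is end minus start plus 1, and coordinates count from 1. The build is mm10, and tools listed without roles, per the submitters' processing notes, include MACS2 2.1.1, Bowtie2 2.2.5 and cutadapt 1.14. Read totals, calling thresholds, duplicate removal and transposase shifting are not stated in the sources used. A lower depth would lower pileups and narrow peaks, so raw ratios are read against pairs of like pileup.

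Peaks overlapping a gene span of RefSeq (GRCm38.p6) plus 10 kb were taken. List-only means no overlap of 1 bp with the other list, checked with bedtools 2.31.1. Pairs are each other's highest overlapping peak. Peaks of like pileup lie within 10% of a peak's own. Pileup ratios have exact Clopper-Pearson 95% intervals, which treat pileups as counts. These intervals cover counting error only and are approximate for a maximum such as a summit. The interval of a median is an exact binomial one and covers the spread among pairs. Python 3.11.15, numpy 2.4.6, pandas 2.3.3, scipy 1.17.1 and matplotlib 3.10.9 were used, and the steps were tested on simulated data.

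Promoter windows matched 6 of the 7 genes. Named genes were the 7 members; other receptors whose window overlaps a member's, and the 6 with the most peaks; the ligands with the most peaks; and the 5 genes most like Cx3cr1 by the rule given with them. Of the ligands, 3 are named, since the next were tied. Not every gene the rule names is reported here. The members, the gene lists, the motifs and the alternatives were chosen with earlier results of these data known.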

Additional observations from a re-analysis of the deposited data

How the results depend on the processing

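With no replicate, no library could be left out. No paired analysis was possible because each genotype has 1 library and no test was made. Counts of peaks at the 7 genes follow the window: without a flank there were 22 Tle4cKO and 23 WT peaks, with 50 kb on either side 183 and 185, and among the 40000 strongest peaks of each list 23 and 21. With a pileup of at least 15 there were 45 and 54. List-only peaks were 1 Tle4cKO-only and 2 WT-only without a flank, 12 and 23 with 50 kb, and 0 and 0 in the upper quartile of each list. Counting peaks within 500 bp as shared left 2 and 7, and the 2 Cx3cr1 peaks remained WT-only under this setting. Requiring 50% of the shorter peak gave 5 and 10. The median relative log2 ratio of all 7 genes stayed within its interval in each of 5 alternatives, at 0 to 0.08, and the median width difference was -32 bp with summed widths. The median relative log2 ratio of Cx3cr1 alone lay between -0.02 and 0.02 and had no stable sign. Medians of Ccr1 (-0.07), Ccr7 (0.09), Ccrl2 (-0.03) and Cxcr4 (0.01) also changed sign in at least 1 alternative, while those of Ccr2 (0.01 to 0.20) and Ccr3 (-0.20 to -0.08) kept theirs. Low pileups limit the weak pairs most.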
